A study of Mus musculus with 9 samples.

Results

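The comparison described here is the response of mouse CD4+ T cells to PMA and ionomycin while Compound 10 was present. Its members are the 5 libraries, of 9 in all, whose titles carry Compound 10: 2 unstimulated and 3 stimulated. All cells came from the spleens of C57BL/6 mice by untouched CD4+ purification, a procedure that removes the other cells and leaves the CD4+ cells unbound. Every Compound 10 library received 12.5 µM of the compound for 1 h. The stimulated cells then received 10 nM PMA with 1 µM ionomycin for 2 h, and the unstimulated cells did not. The series' design text calls the compound a chemical inhibitor of NFAT:AP-1, so the controls of this comparison carry the inhibitor too. In the other 4 libraries, 2 unstimulated and 2 stimulated, the vehicle DMSO took the place of Compound 10. The labels give neither the age or sex of the mice nor whether libraries came from separate animals, so p-values measure the spread between these libraries, which may be technical.

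PMA is a phorbol ester that stands in for diacylglycerol and switches on protein kinase C and RasGRP proteins, and through them the MAP kinases and NF-kB. Ionomycin carries calcium into the cell, where calcineurin strips phosphates from NFAT and lets it enter the nucleus. Together they imitate signalling from the T cell receptor without engaging it. NFAT binds DNA beside AP-1, a dimer of Fos and Jun proteins, and this pair is best known for driving cytokine genes such as Il2. NF-kB, the Egr factors and MYC act in parallel.

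Each library was sequenced to between 13420384 and 15693035 estimated counts in the Compound 10 groups and between 10669821 and 21852830 over all 9. Expression is given as CPM, the standard depth-scaled count, with TMM scaling, in the order unstimulated libraries 1 and 2, then stimulated libraries 1, 2 and 3. Changes are log2 ratios of stimulated to unstimulated with their standard error from edgeR, and p-values are adjusted over all 14011 genes tested. Cd4 read 166 and 136 CPM in unstimulated and 156, 116 and 159 CPM in stimulated cells. Of the CD8 chains, Cd8a never exceeded 4 counts in a Compound 10 library, while Cd8b1 was detected in all of them, at 5.78 and 6.53 CPM and then 5.45, 4.43 and 6.29 CPM, with no call. Of 12 CD4 T cell markers, 5 were higher with stimulation and 1 was lower, beside 11.0% and 10.8% of all genes tested. Nuclear ribosomal RNA took 6.822% and 3.166% of counts in unstimulated and 9.703%, 1.801% and 7.521% in stimulated libraries, ranges that overlapped.

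Markers of other cells were detected, and some were higher with stimulation. Their counts of calls are read against the 11.0% of all genes tested that were called higher. Of the B cell markers, 1 of 10 tested was called, and the summed level of the list was 361.5 and 328.5 CPM in unstimulated against 996.1, 683.7 and 534.8 CPM in stimulated libraries. Most of that sum was Cd74, the class II invariant chain, at 285 and 263 CPM and 799, 559.8 and 429 CPM, which did not pass (edgeR adjusted p = 0.275). Among the alternatives, Cd74 was called higher on Compound 10 libraries alone (edgeR adjusted p = 0.0163) and without a filter on low counts (4.54e-05). It was also called higher with a replicate block within each treatment (5.22e-05), and in no other alternative. Pax5 and Cr2, which define B cells, did not exceed 5 counts in any Compound 10 library. Natural killer cell markers summed to 40.46 and 38.3 CPM against 66.83, 53.15 and 51.33 CPM, with Prf1 and Klrd1 called of 8 tested, while Ncr1 did not exceed 6 counts. Erythroid and platelet markers summed to 7.793 and 12.67 CPM against 42.71, 22.99 and 24 CPM, with Car2 called of 8 tested. Monocyte and neutrophil markers had no call among 5 and 3 tested, and Ly6g, a neutrophil marker, was at 0 in every Compound 10 library. The part of these cells in the results below was not tested. H2-Aa (edgeR adjusted p = 0.0374), Prf1 (0.0131), Klrd1 (0.0487) and Car2 (0.0364) were all lost when either unstimulated library was left out, with adjusted p from 0.0857 to 0.233, and each was lost without at least 1 stimulated library as well.

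The promoters of 4 cytokine genes are shown because these genes mark the response and letters searched for NFAT or AP-1 can be read in them. Each run is the RefSeq window of GRCm38.p6 from 250 bases before to 50 bases after a transcript start, 5′ to 3′ on the strand of the gene. Capitals mark matches on either strand to GGAAA, the core letters that NFAT and related factors bind, or to TGANTCA. The latter, with any base at N, is a loose form of the AP-1 consensus, which has C or G there. Il2 lies at chr3:37125905-37126204 on the minus strand, Il17a at chr1:20730655-20730954 on the plus strand, Tnf at chr17:35201958-35202257 on the minus strand and Il4 at chr11:53618616-53618915 on the minus strand. RefSeq gives Il4 another start as well, and the window shown is the one with more matches.
Il2: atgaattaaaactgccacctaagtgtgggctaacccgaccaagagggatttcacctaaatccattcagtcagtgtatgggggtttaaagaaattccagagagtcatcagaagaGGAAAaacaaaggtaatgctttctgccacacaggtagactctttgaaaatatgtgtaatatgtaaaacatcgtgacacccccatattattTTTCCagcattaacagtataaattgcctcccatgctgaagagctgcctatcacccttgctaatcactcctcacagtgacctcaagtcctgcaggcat
Il17a: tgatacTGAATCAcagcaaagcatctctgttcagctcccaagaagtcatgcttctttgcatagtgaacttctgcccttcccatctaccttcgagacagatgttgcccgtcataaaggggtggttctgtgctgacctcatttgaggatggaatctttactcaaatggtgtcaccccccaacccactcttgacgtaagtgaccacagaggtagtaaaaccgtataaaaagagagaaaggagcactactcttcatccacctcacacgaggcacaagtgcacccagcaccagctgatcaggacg
Tnf: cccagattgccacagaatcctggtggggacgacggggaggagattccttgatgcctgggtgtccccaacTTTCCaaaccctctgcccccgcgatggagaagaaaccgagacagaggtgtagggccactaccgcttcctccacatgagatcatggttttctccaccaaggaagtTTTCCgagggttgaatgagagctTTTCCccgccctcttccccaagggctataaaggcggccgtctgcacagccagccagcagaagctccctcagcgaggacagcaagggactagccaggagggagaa
Il4: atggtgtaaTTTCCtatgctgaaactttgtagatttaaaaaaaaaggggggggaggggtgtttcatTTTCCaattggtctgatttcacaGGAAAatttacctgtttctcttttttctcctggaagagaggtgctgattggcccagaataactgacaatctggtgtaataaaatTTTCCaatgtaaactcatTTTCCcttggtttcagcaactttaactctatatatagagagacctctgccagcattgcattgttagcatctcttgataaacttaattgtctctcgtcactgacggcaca
The Il2 window held 2 GGAAA matches, the Tnf window 3 and the Il4 window 5. The Il17a window held 1 TGANTCA match and no GGAAA. That match, TGAATCA, has A at N and so is not the AP-1 consensus itself. Il2, Il17a and Tnf rose strongly with stimulation under Compound 10, while Il4 did not pass the test, as described below.

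Over all promoters, a GGAAA match was common and a TGANTCA match was not. GGAAA occurred on either strand in 61.3% of 32851 RefSeq promoter windows of this length and in 62.3% of the 1397 windows of genes that rose. Among the 76 windows of genes that rose at least 16-fold, 81.6% held GGAAA. The loose AP-1 form TGANTCA was found in 7.81% of all windows, in 7.23% of those of risen genes and in 18.4% of those at 16-fold or more. Windows of genes that fell held GGAAA in 59.1% and TGANTCA in 4.01% of 1497 cases, and those of tested genes without a call in 58.6% and 4.73% of 9130. The cAMP response element TGACGTCA was present in 1.79% of all windows, 4.22% of those of risen genes, 3.01% of those of genes that fell and 2.98% of those without a call. The NF-kB consensus was found in 0.411%, 0.501%, 0.534% and 0.449% of the same 4 sets. Among the 76 windows at 16-fold or more, 3 held the cAMP response element (3.95%) and 2 the NF-kB consensus (2.63%). These shares describe letters in a short window; several windows can belong to 1 gene, no test was made, and windows on chromosome 18 were left out.

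Stimulation under Compound 10 changed 3052 of 14011 genes, which is 21.8% (edgeR, adjusted p under 0.05), and 4742 genes had an unadjusted p under 0.05. Of these 3052, 1542 rose (11.0% of genes tested) and 1510 fell (10.8%). The rises were the larger: 984 genes (7.02%) rose and 801 (5.72%) fell at least 2-fold, together 12.7% of those tested, 338 against 123 changed at least 4-fold, and 85 against 13 at least 16-fold. The median change was 1.22 log2 units among called rises and 1.04 log2 units in size among called falls, beside 0.0036 over all genes tested. Unstimulated and stimulated libraries did not overlap for 6944 genes (49.6%), and for 3048 of the 3052 called. Protein-coding genes made up 1318 of the rises and 1444 of the falls among 11373 tested, and long noncoding RNAs 82 and 37 among 1065. The number of calls rested on both unstimulated libraries: it was 1627 without unstimulated library 1 and 1506 without unstimulated library 2. On log2(TPM + 1) without rescaling, the median gene shifted by -0.207 and the split became 559 higher and 1524 lower, 26.8% higher in place of 50.5%. Rescaling TPM by the median of ratios gave 1381 higher and 1147 lower. List counts given below without an unstimulated library come from fits with fewer calls over all genes. The shares of 11.0% and 10.8% therefore do not apply to those counts.

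Cytokine genes rose together: 15 of the 21 tested were higher and none was lower, against 11.0% of all genes, with a median change of 4.79 log2 units. Il24, the other member, was not tested, with at most 1 count in a library. Il2, the T cell growth factor, stood at 0.519 and 0.443 CPM in unstimulated and at 327, 240.5 and 429 CPM in stimulated cells. All 3 stimulated libraries were far above both unstimulated ones, and the change was 9.41 ± 0.40 log2 units (edgeR adjusted p = 4.58e-08). Tnf, an inflammatory cytokine, went from 12.5 and 10.2 to 2049, 1687 and 2530 CPM, a change of 7.52 ± 0.58. Ifng, the T helper 1 cytokine that activates macrophages, was at 38.2 and 27.3 CPM without and 1240, 756 and 728 CPM with stimulation, a change of 4.79 ± 0.52. Stimulated library 1 was the highest for Ifng and library 3 the highest for Il2 and Tnf, so no single library led.

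Il17a, the signature cytokine of T helper 17 cells, was almost silent at rest. It had 3 counts over both unstimulated libraries and 1220 over the 3 stimulated ones, a ratio of scaled counts of 346 with a 95% interval of 118 to 1682.1, which covers counting error only. In CPM it read 0.0649 and 0.111 and then 27.8, 33.1 and 31.8. Il3 and Csf2, growth factors for blood and myeloid cells, went from 1 to 175 and from 4 to 463 counts, and Il13, a type 2 cytokine, from 2 to 159 counts. The ratios were 149 (interval 26.4 to 5921.2), 98.6 (38.3 to 363) and 67.7 (18.4 to 564). Il21, which helps B cells, Lif, of the interleukin 6 family, and the anti-inflammatory Il10 rose by 5.09 ± 0.50, 5.18 ± 0.52 and 4.89 ± 0.61 log2 units. Lta, lymphotoxin alpha, had a smaller but tight rise, from 7.73 and 7.2 to 53, 61.4 and 56.9 CPM (2.94 ± 0.23, edgeR adjusted p = 4.95e-06).

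The remaining cytokines either rose by less or did not pass. Il17f, the close relative of Il17a, was at 1.36 and 1.77 CPM and then 3.69, 3.78 and 4.36 CPM, a change of 1.32 ± 0.27 (edgeR adjusted p = 0.00448, 0.0601 without unstimulated library 1 and 0.264 with effective length as an offset). Il9, Tgfb1 and Il6 were called with adjusted p of 0.0247, 0.0283 and 0.0376. Each of these 3 calls was lost when either unstimulated library was left out, with adjusted p between 0.0619 and 0.252, and Tgfb1 also lost it without stimulated library 1 (0.073) or 3 (0.074) and Il6 without stimulated library 3 (0.136). Il9 had no count at rest and 22 counts once stimulated; set against 3 counts for the group as the floor, this was at least 6.25-fold higher. Il4, the T helper 2 cytokine whose promoter is shown above, read 3.44 and 4.04 CPM and then 7.21, 6.45 and 4.28 CPM. Its stimulated values lay above its unstimulated ones, but the change of 0.68 ± 0.28 did not pass (edgeR adjusted p = 0.109). With a replicate block, over all libraries or within each treatment, Il4 was called higher (edgeR adjusted p = 0.0483 and 0.00636). Il5, Il22, Ltb, Csf1 and Osm did not pass either, with changes from -0.67 ± 0.40 for Osm to 2.92 ± 1.35 for Il22, which had 2 counts at rest and 19 after stimulation.

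**Figure D1:**
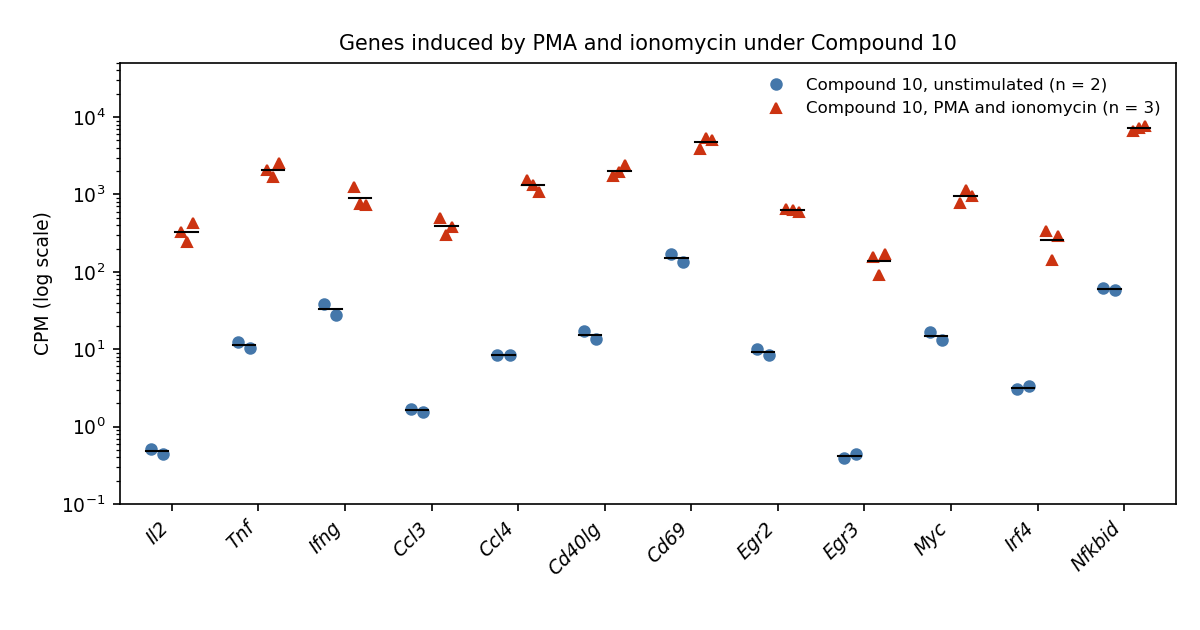
CPM on a log axis in each Compound 10 library for 12 genes that rose, with circles for the 2 unstimulated libraries, triangles for the 3 stimulated libraries and a black line for the mean of each group. In every gene shown the stimulated libraries sit above the unstimulated ones, which the naming rule required of the genes furthest up. Il2 goes from under 1 CPM to between 240.5 and 429 CPM.

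Chemokine genes followed, with 6 of 10 tested higher, none lower and a median change of 2.92. Ccl3 and Ccl4, which attract T cells and macrophages, went from 1.69 and 1.55 to 494, 298 and 382 CPM and from 8.51 and 8.41 to 1555, 1314 and 1073 CPM. The changes were 7.91 ± 0.39 and 7.28 ± 0.46 log2 units (edgeR adjusted p = 1.60e-07 and 1.37e-06), and the groups were far apart in both genes. Cxcl10, which draws cells that carry CXCR3, rose from 5.71 and 3.87 to 84.3, 48.4 and 67 CPM (3.80 ± 0.35). Xcl1, which attracts cross-presenting dendritic cells, rose from 11.2 and 11.8 to 102, 55.4 and 69.6 CPM (2.72 ± 0.30). Ccl20 and Ccl1 were called on few counts, 5 against 55 and 4 against 45 over the groups, and both were lost without unstimulated library 2 (edgeR adjusted p = 0.0929 and 0.137). Ccl1 was also lost without stimulated library 1 (0.0511) or 2 (0.0625). Ccl5, an abundant chemokine of memory and cytotoxic cells, did not pass, at 141 and 136 CPM and then 262, 190.4 and 147 CPM (0.53 ± 0.35), nor did Cxcl11, Ccl9 and Cxcl3. Markers of natural killer cells, a further source of Ccl3, Ccl4, Xcl1 and Ifng, were summed above, and their part was not tested. In bulk RNA, more cells making a transcript and more transcript per cell cannot be told apart.

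Nearly every surface molecule of activation was higher: 20 of 22 rose, none fell, and the median change was 2.15. Cd40lg, the ligand through which T cells help B cells, went from 17 and 13.4 to 1752, 1936 and 2420 CPM, a change of 7.07 ± 0.30. Cd69, the early activation antigen that holds cells in lymphoid tissue, went from 170.3 and 134 to 3891, 5427 and 5001 CPM (4.97 ± 0.28). Slamf1, a homotypic co-receptor, rose from 10.8 and 9.8 to 341, 266 and 339 CPM (4.94 ± 0.22, edgeR adjusted p = 5.13e-08). Sema7a, a membrane semaphorin, and Tnfsf11, the RANK ligand, rose by 4.36 ± 0.38 and 3.06 ± 0.27. Cd44, the adhesion receptor of activated and memory cells, did not pass at 58.9 and 59.9 CPM and then 101, 59 and 88.9 CPM (edgeR adjusted p = 0.189). Stimulated library 2 lay among the unstimulated values, and without it Cd44 was called higher (0.0289). Tnfrsf18, the co-stimulatory receptor GITR, was also without a call (-0.23 ± 0.21).

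Inhibitory receptors rose in 6 of 12 tested members, and none fell (median 1.15). Ctla4, which competes with CD28 for its ligands, went from 32.7 and 22.6 to 172, 97 and 108 CPM (2.18 ± 0.26). Btla and Cd160, both receptors for HVEM, rose from 6.17 and 3.6 to 35.6, 22.3 and 34.4 CPM (2.66 ± 0.31) and from 1.75 and 1.72 to 8.65, 6.38 and 6.55 CPM (2.05 ± 0.29). Cd274, the ligand PD-L1, rose by 1.54 ± 0.25. Lag3 and Tigit did not pass (0.59 ± 0.69 and 0.07 ± 0.22), and in both the libraries of the 2 groups overlapped. Slamf7, a receptor of cytotoxic and activated lymphocytes that was in neither list, was among the 15 genes furthest up, from 2.66 and 6.92 to 198, 204 and 175 CPM (5.31 ± 0.38).

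Receptor chains for cytokines had few calls. Of 22 tested, 4 were higher and 2 lower, near the background of 11.0% and 10.8%, and the median change was 0.11. The rises numbered 2 without unstimulated library 1 and 2 without unstimulated library 2. Il2ra, the high-affinity chain of the interleukin 2 receptor, rose from 7.86 and 5.54 to 47, 33 and 44.6 CPM (2.63 ± 0.24). Ifngr1 and Ifngr2, the chains of the interferon gamma receptor, both fell. Ifngr1 went from 509.9 and 476 to 153, 155 and 156 CPM, values with little spread inside either group (-1.67 ± 0.16, edgeR adjusted p = 2.26e-05), and Ifngr2 changed by -0.79 ± 0.17. Il12rb2 did not pass (0.02 ± 0.41).

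Immediate-early genes, which respond without new protein synthesis, were higher in 19 of 21 cases and lower in 1, with a median change of 2.53. Egr2 and Egr3, zinc finger factors induced downstream of NFAT and MAP kinases, went from 10.0 and 8.47 to 653, 637 and 596 CPM and from 0.39 and 0.443 to 158, 90.7 and 169 CPM. The changes were 6.09 ± 0.23 and 8.35 ± 0.41 log2 units, and Egr3 had the second largest rise of the genes furthest up. Egr1, a serum response factor target, rose from 143 and 86.9 to 4981, 3924 and 4259 CPM (5.26 ± 0.31). Nr4a1 and Nr4a2, orphan nuclear receptors of T cell receptor signalling, rose from 412 and 319 to 8476, 8662 and 8998 CPM and from 79 and 57 to 1361, 1307 and 1093 CPM. Myc, which drives growth and biosynthesis, went from 16.8 and 13.1 to 781, 1132 and 949 CPM, the groups well apart (6.00 ± 0.30, edgeR adjusted p = 1.32e-07). Btg2, an antiproliferative factor, rose by 2.53 ± 0.20. The member that fell was Klf6 (-0.95 ± 0.25, edgeR adjusted p = 0.0158), a call lost without unstimulated library 2 (0.251) or stimulated library 3 (0.0559). Ier5 did not pass (0.69 ± 0.26).

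The genes of the AP-1 family itself were higher in 9 of 13 tested, lower in none, with a median change of 1.54. Fos went from 96.6 and 77.1 to 580.5, 528 and 543 CPM, without overlap (2.66 ± 0.19, edgeR adjusted p = 2.78e-06). Fosl1 rose most in the Fos family, from 1.1 and 0.996 to 28.9, 32.5 and 26.3 CPM (4.79 ± 0.33), and Fosb and Fosl2 rose by 2.23 ± 0.33 and 1.74 ± 0.20. In the Jun family, Jun did not pass, at 65 and 73.4 CPM and then 73.9, 78.4 and 65.1 CPM (0.07 ± 0.17), with overlapping groups. Junb and Jund were called at adjusted p of 0.0216 and 0.0488, and both were lost without either unstimulated library, with adjusted p between 0.0935 and 0.21; Jund was also lost without stimulated library 2 (0.105) or 3 (0.0539). Atf3, a stress-induced partner of Jun proteins, rose from 8.31 and 5.59 to 97.8, 94.1 and 92 CPM (3.77 ± 0.23), and Maff, a small MAF protein, from 8.25 and 6.48 to 107, 136 and 119.8 CPM (4.04 ± 0.23). Batf, which pairs with Jun proteins and IRF4, rose by 1.54 ± 0.19. Maf, Mafg and Mafk did not pass (-0.20 ± 0.25, -0.11 ± 0.17 and 0.32 ± 0.24).

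Among NFAT factors, calcineurin subunits and their regulators, 3 of 12 tested were higher and none was lower, and only 1 was higher without unstimulated library 2. Over all genes tested the shares were 11.0% higher and 10.8% lower. Nfatc1, the member whose own promoter is induced by NFAT, rose from 58.7 and 47.7 to 254, 131 and 224 CPM (1.93 ± 0.27, edgeR adjusted p = 0.000323). Rcan1, a calcineurin inhibitor encoded by an NFAT target gene, rose by 1.10 ± 0.23, a call lost without unstimulated library 2 (edgeR adjusted p = 0.0563). Ppp3cc, a calcineurin catalytic subunit, was called at 0.78 ± 0.21 and was lost without unstimulated library 2 (0.212) and without stimulated library 1 (0.0506) or 3 (0.071). Nfatc2 and Nfatc3, the NFAT proteins that resting T cells already hold, had changes of -0.78 ± 0.33 and -0.50 ± 0.22 and did not pass. Among the alternatives, Nfatc2 was called lower with effective length as an offset (edgeR adjusted p = 0.0309) and on Compound 10 libraries alone (0.0426). On log2(TPM + 1), rescaled or not, it was called lower as well. Nfatc3 was called lower with a replicate block within each treatment (edgeR adjusted p = 0.00459).

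NF-kB genes rose almost as a block: 10 of 11 subunits and inhibitors were higher, none was lower, and the median change was 1.97. Nfkbid, which encodes a nuclear IkB protein, went from 61 and 57.7 to 6549, 7263 and 7574 CPM, with tight groups far apart (6.91 ± 0.30, edgeR adjusted p = 4.58e-08). Rel, the lymphoid subunit that acts on Il2, rose from 46.5 and 56.1 to 539, 530.3 and 695 CPM (3.52 ± 0.23). The other subunits Rela, Relb, Nfkb1 and Nfkb2 rose by 1.97 ± 0.23, 1.94 ± 0.25, 1.46 ± 0.23 and 2.29 ± 0.25. Of the inhibitors, Nfkbia went from 720 and 619 to 2198, 2751 and 2300 CPM (1.85 ± 0.25), and Nfkbie, Nfkbiz and Nfkbib rose by 3.86 ± 0.25, 2.86 ± 0.25 and 1.39 ± 0.20. On log2(TPM + 1) without rescaling, Nfkb1 and Nfkbib lost their calls (limma adjusted p = 0.0799 and 0.0519). Bcl3, a nuclear IkB protein, did not pass (0.67 ± 0.27). Among the alternatives, Bcl3 was called higher on Compound 10 libraries alone (edgeR adjusted p = 0.0205) and without a filter on low counts (0.0389). It was also called higher with a replicate block within each treatment (0.0266).

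Targets and feedback genes of NF-kB were split, with 9 of 18 higher, 1 lower and a median of 1.12. Bcl2a1b and Bcl2a1d, copies of the survival gene A1, rose by 4.21 ± 0.24 and 3.66 ± 0.21; the copies are nearly identical, so the share of each is uncertain. Birc3 and Traf1, adaptors of TNF receptor signalling, rose from 49.4 and 36.2 to 175, 176 and 201 CPM (2.11 ± 0.20) and from 22.9 and 20.5 to 106, 89.8 and 102 CPM (2.19 ± 0.18). Cflar, which blocks caspase 8, and the adhesion ligand Icam1 rose by 2.15 ± 0.20 and 1.42 ± 0.20. Irf1 fell, from 469 and 397 to 254, 209.7 and 211 CPM (-0.94 ± 0.18). Tnfaip3, the deubiquitinase A20, and Tnip1, its partner, did not pass (0.83 ± 0.30 and -0.41 ± 0.15). Among the alternatives, Tnfaip3 was called higher with DESeq2 (DESeq2 adjusted p = 0.0182) and without stimulated library 2 (edgeR adjusted p = 0.00485). It was also called higher without a filter on low counts, with a stricter one and with a replicate block within each treatment. Tnip1 was called lower with that block and on log2(TPM + 1) without rescaling.

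Feedback on the MAP kinases was higher in 8 of 13 genes and lower in 1; 4 were higher without unstimulated library 2 and none was lower without unstimulated library 1. Dusp2, a nuclear phosphatase of MAP kinases, went from 103 and 72.8 to 1289, 666 and 1242 CPM, with stimulated library 2 the lowest of the 3 but still above rest (3.60 ± 0.32). Dusp4 and Dusp6 rose by 2.96 ± 0.28 and 2.86 ± 0.29, and Spry1, which restrains Ras signalling, rose by 4.06 ± 0.45. Factors that destabilise mRNA were higher in 8 of 14 cases and lower in none, but in 4 without unstimulated library 2 and in 5 without stimulated library 3. Zfp36l1, which binds AU-rich elements, went from 199.8 and 208 to 1796, 2504 and 1712 CPM (3.30 ± 0.28), and Zc3h12a, the endonuclease Regnase-1, rose by 2.98 ± 0.26. Feedback on cytokine receptors and STAT5 was higher in 8 of 12 genes and lower in 1. Socs1, an inhibitor of Janus kinases, rose from 117 and 104 to 1035, 1247 and 952 CPM (3.28 ± 0.25), and the kinases Pim1 and Pim3 rose by 3.15 ± 0.31 and 1.94 ± 0.19.

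Factors of T helper fate were higher in 8 of 18 genes and lower in 1; the rises numbered 5 without unstimulated library 1 and 3 without unstimulated library 2, and no member was lower without unstimulated library 1. Tbx21, the T helper 1 factor, rose from 10.3 and 4.7 to 68, 53.5 and 47.2 CPM (2.91 ± 0.43). Prdm1, a factor of effector differentiation, and Id2, an inhibitor of E proteins, rose by 2.63 ± 0.31 and 1.61 ± 0.19. Foxp3, the regulatory T cell factor, did not pass (-0.23 ± 0.33). Of 15 IRF and STAT factors, 3 were higher and 4 lower, beside 11.0% and 10.8% of all genes. Irf4, which sets the strength of effector programmes, went from 3.05 and 3.32 to 334, 144 and 293 CPM, with stimulated library 2 the lowest of the 3 (6.33 ± 0.55, edgeR adjusted p = 7.36e-05). Irf8 rose by 2.24 ± 0.18, and Stat5a and Irf9 fell, changing by -1.08 ± 0.18 and -0.94 ± 0.18.

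Of 22 genes of resting and naive T cells, 10 were lower, against 10.8% of all genes, 2 were higher and 10 did not pass, with a median of -0.51. S1pr4, a sphingosine phosphate receptor, went from 137 and 138 to 12.6, 10.6 and 13.2 CPM, with hardly any spread in either group (-3.50 ± 0.16, edgeR adjusted p = 7.70e-08). Pik3ip1, an inhibitor of PI3 kinase that resting cells express, fell from 77.3 and 79.4 to 5.85, 8.4 and 5.85 CPM (-3.54 ± 0.21). S1pr1, the receptor that lets T cells leave lymphoid tissue, and Klf2, the factor that maintains it, fell from 170.3 and 203 to 49, 59.7 and 59.6 CPM (-1.73 ± 0.21) and from 646 and 592 to 197, 186 and 174 CPM (-1.74 ± 0.25). Klf3, Txnip, a brake on glucose uptake, and Tsc22d3, the glucocorticoid-induced factor GILZ, changed by -1.57 ± 0.17, -2.14 ± 0.28 and -1.31 ± 0.17. Rasgrp2, an activator of Rap1, changed by -0.92 ± 0.15. Foxo1 and Satb1, regulators of the naive state, did not pass (-0.12 ± 0.19 and 0.14 ± 0.20). The members that rose, Slfn2 among them (0.86 ± 0.20), were no longer called without unstimulated library 2, and Slfn2 also lost its call without unstimulated library 1 (edgeR adjusted p = 0.0769).

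The other genes furthest down had mixed functions. Rnf145, an endoplasmic reticulum ubiquitin ligase, went from 252 and 248 to 45.7, 26.9 and 40.9 CPM (-2.73 ± 0.21). Hbp1, a repressor of cell cycle entry, and Frmd8, a partner of iRhom proteins, fell from 311 and 278 to 61, 49 and 50.6 CPM (-2.46 ± 0.20) and from 276 and 242 to 53.9, 38.4 and 45.1 CPM (-2.50 ± 0.19). All values after stimulation were below all values before it in these 3 genes. The rule that named the genes furthest down required this, so it is no added support. Tdrp, Sash3, a lymphocyte adaptor, and Slfn1 changed by -2.64 ± 0.16, -2.46 ± 0.17 and -2.72 ± 0.26. Mgat1, which opens the way to complex N-glycans, fell from 175 and 180.3 to 34.2, 38.7 and 32.4 CPM (-2.34 ± 0.20), and Ppil1, a splicing cyclophilin, from 45.4 and 39.7 to 8.09, 8.01 and 5.76 CPM (-2.54 ± 0.22). Card6, Ankrd10 and Slc35c1, the Golgi GDP-fucose transporter, completed the set with -2.44 ± 0.47, -2.15 ± 0.17 and -2.11 ± 0.25. Crebrf, also in the set at -2.18 ± 0.25 (edgeR adjusted p = 8.54e-05), did not keep its call with effective length as an offset (0.204) or on log2(TPM + 1), rescaled or not (limma adjusted p = 0.183 and 0.107).

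**Figure D2:**
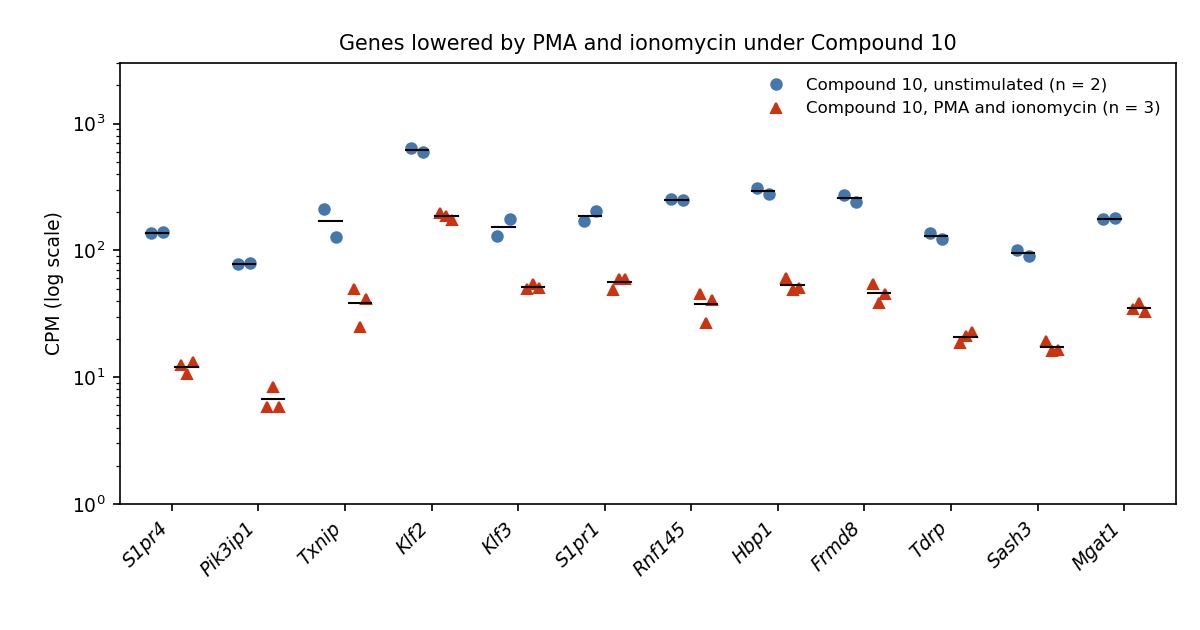
CPM on a log axis in each Compound 10 library for 12 genes that fell, with circles for the 2 unstimulated libraries, triangles for the 3 stimulated libraries and a black line for the mean of each group. No stimulated value reaches an unstimulated one in any gene shown, which the naming rule required of the genes furthest down. S1pr4 goes from 137 and 138 to 12.6, 10.6 and 13.2 CPM.

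In GENCODE M21 on GRCm38, the annotated gene bodies of these leading genes are Il2 at chr3:37120523-37125959, Nfkbid at chr7:30421732-30428746, Cd40lg at chrX:57212143-57224042, S1pr4 at chr10:81497747-81500132 and Pik3ip1 at chr11:3330401-3342971. Tagap and Myo7a also stood among the 15 furthest up. Tagap, a GTPase-activating protein of T cells, rose from 46 and 29.3 to 1657, 1055 and 1624 CPM (5.26 ± 0.33), and Myo7a, an unconventional myosin, from 0.844 and 0.0553 to 20.6, 26.9 and 43.6 CPM (6.13 ± 0.92). The unstimulated Myo7a values lay far apart, and its call was lost with a replicate block set within each treatment (edgeR adjusted p = 0.0853). By TPM, which corrects for transcript length, Srgn, the proteoglycan of secretory granules, had the highest mean in stimulated cells of the protein-coding genes that rose, though not in unstimulated cells, at 964 ± 80.0 in unstimulated (n = 2) and 7991 ± 679.6 in stimulated cells (n = 3, mean TPM ± SD). It changed by 3.46 ± 0.27 on the CPM scale.

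In proximal T cell receptor signalling 5 of 25 genes were higher and 2 lower (median 0.32), beside 11.0% and 10.8% of all genes. Fewer rises were called without unstimulated library 2, and the falls were not called without unstimulated library 1 or 2 or stimulated library 3. Ptpn22, a phosphatase that restrains the receptor, rose most clearly, from 82.7 and 64.8 to 561, 549.8 and 664 CPM (3.00 ± 0.21). Lcp2, the adaptor SLP-76, and the kinase Zap70 rose by 1.86 ± 0.22 and 1.44 ± 0.19. Cd6, a co-receptor, fell (-0.87 ± 0.22, edgeR adjusted p = 0.0131), but not without unstimulated library 1 (0.0617), unstimulated library 2 (0.0851) or stimulated library 3 (0.0596). Trac, the receptor alpha constant gene, rose from 296 and 291 to 766, 796 and 809 CPM (1.43 ± 0.20). Of the 8 Gimap GTPases, which support lymphocyte survival, 5 were higher and none lower, or 2 without unstimulated library 2. Gimap5 went from 13.4 and 12.5 to 136, 136 and 160 CPM (3.48 ± 0.19).

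Genes of growth were called in part, read here against the 11.0% higher and 10.8% lower of all genes. Of 28 genes of ribosome biogenesis and RNA polymerase I, 9 were higher and 2 lower (median 0.38); 5 were higher without unstimulated library 1. No fall was called without unstimulated library 2 or stimulated library 3, and 1 without any other library but stimulated library 2. Nolc1, Gnl3 and Rrs1, nucleolar factors, rose by 1.56 ± 0.18, 1.47 ± 0.18 and 1.56 ± 0.19, while Nop56, Bop1 and Wdr12 did not pass (-0.04 ± 0.19, 0.09 ± 0.20 and -0.09 ± 0.17). Gnl3 read 43.4 and 35.5 CPM and then 109, 97.9 and 120.5 CPM, and Nop56 346 and 368 CPM and then 322, 418 and 299 CPM, with overlap. Polyamine genes were higher in 6 of 12 cases and lower in none, or in 2 without unstimulated library 2; Srm, spermidine synthase, rose from 51.6 and 47.5 to 135, 132 and 131 CPM (1.42 ± 0.20) and Amd1 by 1.40 ± 0.24. Translation initiation factors were higher in 8 of 23 cases and lower in 1, with Eif1a at 1.42 ± 0.17 and Eif2b1 at -1.06 ± 0.20. Aminoacyl-tRNA synthetases had 1 rise and 2 falls among 20, no more than the background, and neither the rise nor a fall was called without unstimulated library 2. The rise was also lost without 5 other libraries taken out in turn, and 1 fall was left without 5. Cytosolic ribosomal protein genes had 1 rise among 25, which was lost without any 1 of 6 libraries.

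Lists of nutrient uptake and metabolism differed in their share of calls, read here against the 11.0% higher and 10.8% lower of all genes. Amino acid transporters were higher in 4 of 11 cases, or 2 without unstimulated library 2, with Slc38a1 from 56.9 and 45.7 to 358, 282 and 378 CPM (2.73 ± 0.22) and Slc7a1 at 1.96 ± 0.19. Glycolysis and hypoxia genes were higher in 6 of 21 cases and lower in none, or in 3 without either unstimulated library; Pgam1, phosphoglycerate mutase, rose by 1.39 ± 0.25, and Pfkp did not pass (0.01 ± 0.18). Sterol and fatty acid synthesis had 6 rises and 3 falls among 20, or 2 rises without unstimulated library 2, and Scd2, a desaturase, fell from 19 and 20.2 to 8.33, 3.06 and 6.29 CPM (-1.74 ± 0.36). The 13 mitochondrially encoded genes had no call in either direction, although 2 were called higher without stimulated library 1. Nuclear genes of oxidative phosphorylation had 3 rises and 3 falls among 24, near the 11.0% and 10.8% of all genes, or 1 of each without either unstimulated library.

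Survival and cell cycle genes had calls in both directions. In the Bcl2 family 6 of 14 were higher and 2 lower, beside 11.0% and 10.8% of all genes. Bcl2l1, the survival gene Bcl-xL, rose from 9.35 and 6.48 to 38.1, 43 and 34 CPM (2.28 ± 0.25). Bbc3 and Bad, which promote cell death, fell from 47.5 and 44.2 to 10.1, 12.2 and 10.7 CPM (-2.06 ± 0.19) and from 19.3 and 20.4 to 4.09, 7.23 and 6.72 CPM (-1.72 ± 0.24). Among regulators of G1, 3 of 16 were higher and 2 lower, near the 11.0% and 10.8% of all genes, or 1 lower without unstimulated library 1. Cdkn1a, the inhibitor p21, rose from 140.1 and 118 to 1070, 1146 and 1099 CPM (3.10 ± 0.30), Cdkn1b, the inhibitor p27 of resting cells, fell from 46.1 and 76.6 to 12.9, 19.7 and 17.6 CPM (-1.87 ± 0.24), and Ccnd2, cyclin D2, rose by 1.24 ± 0.19. Genes known as p53 targets, a list that shares Cdkn1a, Btg2 and Bbc3 with those above, were higher in 7 of 17 cases and lower in 1, or higher in 4 without unstimulated library 2 and lower in 2 without stimulated library 2, and Aen, a nuclease, rose by 1.89 ± 0.20.

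Stress and RNA-processing lists are read against the same 11.0% and 10.8% of all genes. Heat shock chaperones were higher in 7 of 17 cases and lower in 1, or 2 and none without unstimulated library 2, and the fall was lost as well without unstimulated library 1 or stimulated library 3. Hspa5, the chaperone of the endoplasmic reticulum, rose from 1691 and 1465 to 4999, 7703 and 5004 CPM (1.90 ± 0.28) and Dnajb1 by 1.85 ± 0.26. Integrated stress response genes had 4 rises and 2 falls among 14, but no rise without unstimulated library 2 and 2 without unstimulated library 1 or stimulated library 1. The falls numbered 1 without either unstimulated library, and Trib3 changed by -1.74 ± 0.23. Genes of the NRF2 antioxidant response had 4 rises and 1 fall among 18, or 2 rises without unstimulated library 1 and 1 without unstimulated library 2; Srxn1, sulfiredoxin, rose from 1.1 and 1.44 to 19.6, 15.5 and 14.3 CPM (3.68 ± 0.36) and Keap1, the repressor of NRF2, changed by -1.37 ± 0.19. Proteasome subunits had 2 falls and no rise among 24, and neither fall was called without either unstimulated library; 1 was called without either unstimulated vehicle library or stimulated library 1 or 3, and 1 rise appeared without stimulated library 2. SR proteins and splicing kinases were higher in 6 of 18 cases, or 2 without either unstimulated library, and hnRNP genes in 4 of 19, with Hnrnpab at 1.41 ± 0.23. The 1 hnRNP gene that fell lost its call without either unstimulated library, either unstimulated vehicle library or stimulated library 3, and 2 fell without stimulated library 2. Elongation regulators had 2 rises and 3 falls among 19, near the background, with 1 rise without either unstimulated library or stimulated library 3 and 4 without stimulated library 2. Ell2, an elongation factor, rose by 1.70 ± 0.18, while Brd3, Ell and Nelfa fell (-1.10 ± 0.16, -1.25 ± 0.20 and -1.08 ± 0.19).

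Interferon genes had calls in both directions. Of 20 interferon-stimulated genes 4 were higher and 3 lower, beside 11.0% and 10.8% of all genes, with 2 rises left without either unstimulated library and 1, no and 1 fall without unstimulated library 1, unstimulated library 2 and stimulated library 3. Isg15, a ubiquitin-like protein, rose from 10.7 and 9.24 to 44, 42.3 and 29.4 CPM (1.95 ± 0.23), and Samhd1, a dNTP hydrolase, rose by 1.49 ± 0.18. The inducible GTPases had 3 rises and 3 falls among 15, or 1 fall without unstimulated library 1. Gbp3 rose by 1.62 ± 0.23, and Tgtp2 fell (-1.38 ± 0.23); Tgtp2 has a near-identical neighbour, so its value is uncertain. In adenosine and cAMP signalling 3 of 13 were higher, with Creb1 at 1.62 ± 0.19 and Pde4b, a phosphodiesterase, at 1.39 ± 0.18.

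**Figure D3:**
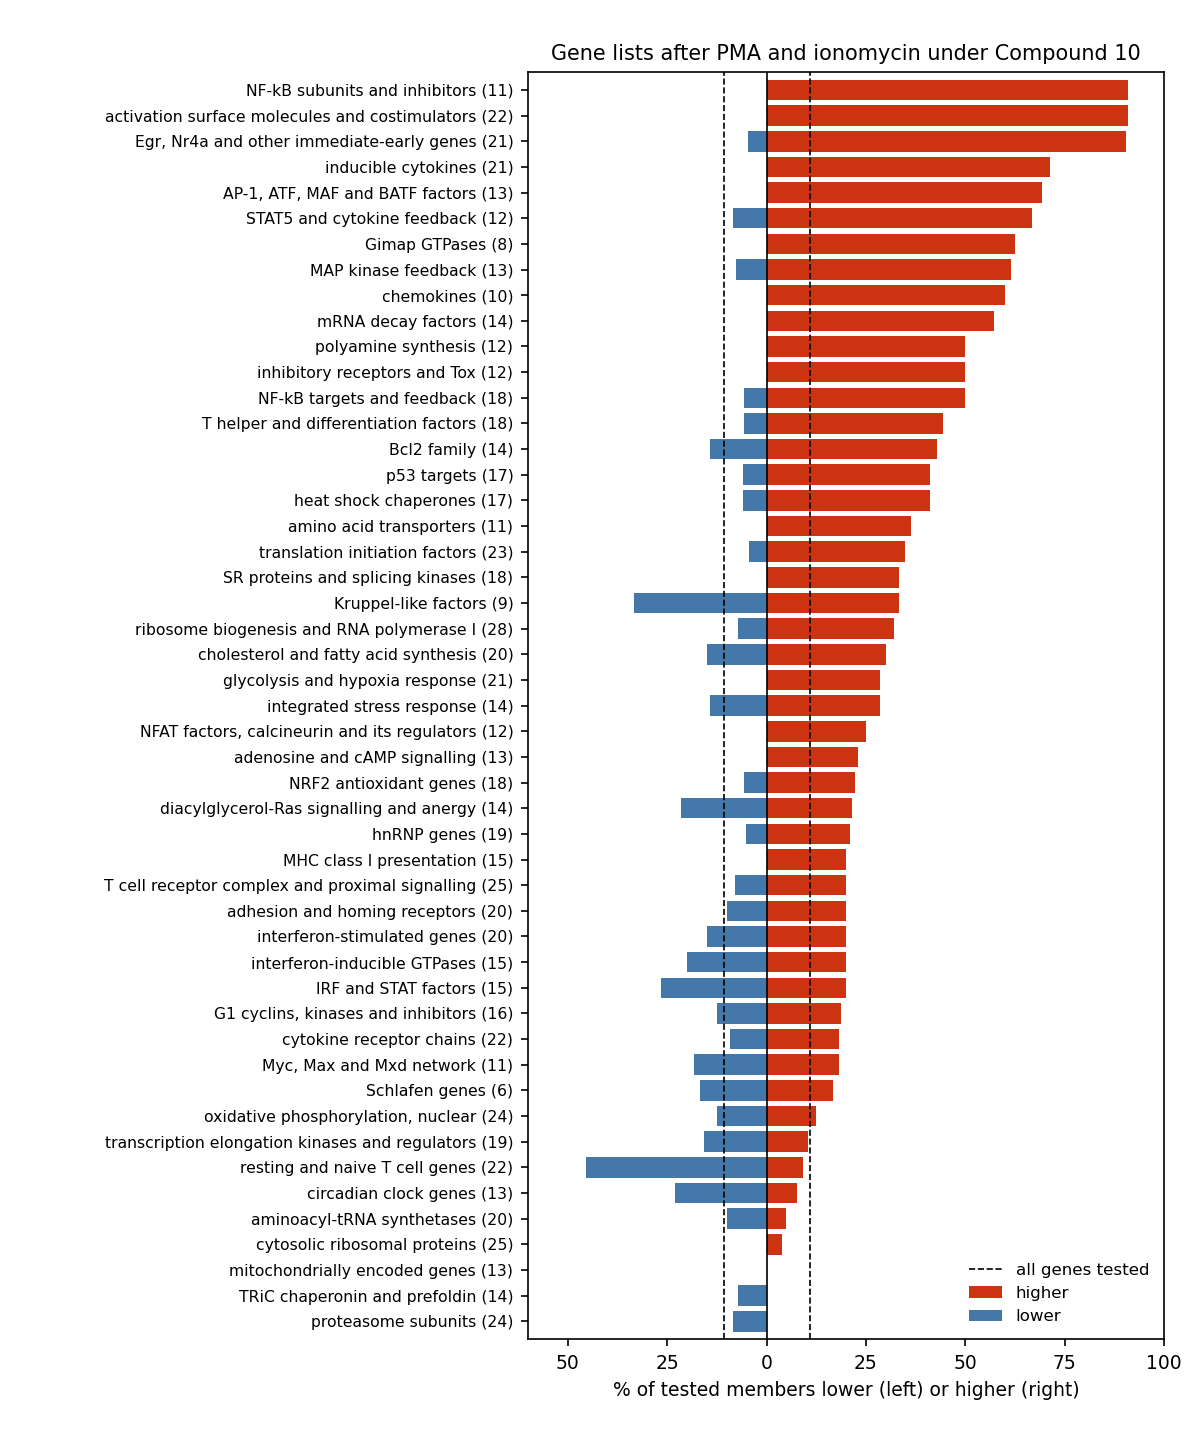
Share of tested members of each gene list that were higher (red, right) or lower (blue, left) at an adjusted p under 0.05 with stimulation under Compound 10, with the number tested in brackets and dashed lines at the shares of all genes tested, 11.0% higher and 10.8% lower. NF-kB subunits and inhibitors, activation surface molecules and immediate-early genes lie furthest right, and resting and naive T cell genes furthest left.

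For reference, the same stimulation in vehicle changed 3940 of 14011 genes (28.1%), 2011 higher (14.4%) and 1929 lower (13.8%). Of the 1542 genes that rose under Compound 10, 1126 (73% of these and 56% of the rises in vehicle) also rose in vehicle, with medians of 1.27 under Compound 10 and 1.61 in vehicle. Of the 1510 that fell, 907 (60.1% and 47%) also fell in vehicle, with medians of -1.13 and -1.27. Opposite calls were made for 21 genes. Since the genes were selected on calls, these medians are a description. The difference between the responses itself passed for 144 genes (1.03%), 59 with a higher (0.421%) and 85 with a lower (0.607%) value under Compound 10, and 2052 had an unadjusted p under 0.05. The count ranged from 29 to 264 when single libraries were left out, from 29 without unstimulated Compound 10 library 1 to 264 without stimulated Compound 10 library 2, and it was 42 to 52 without any 1 of the vehicle libraries, unstimulated Compound 10 library 2 or stimulated Compound 10 library 3. Of the 144, 41 moved the same way in both responses, 18 in opposite ways, 26 had a call under Compound 10 only and 59 in vehicle only, where the groups of calls follow from the thresholds. A difference between responses can lie in the stimulated or in the unstimulated libraries. By the log2 ratio of mean CPM, Compound 10 to vehicle, 102 of 142 genes lay further apart after stimulation and 40 before it; the other 2 had a group at 0.

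Several induced genes rose less under Compound 10 than in vehicle. Il4 changed by 0.68 ± 0.28 against 3.88 ± 0.29 log2 units (edgeR adjusted p of the difference = 0.00313), and Il17f by 1.32 ± 0.27 against 4.89 ± 0.30 (0.00251). Xcl1 changed by 2.72 ± 0.30 against 5.72 ± 0.36 (0.00644) and Cd160 by 2.05 ± 0.29 against 5.46 ± 0.33 (0.00313). In these 4 genes the difference was called in each of the 9 fits that leave out 1 library. The difference for Il2 was -1.56 ± 0.57 and did not pass (edgeR adjusted p = 0.228), nor did that for Tnf (0.57 ± 0.62, 0.763), Ifng (-1.18 ± 0.63, 0.447), Cd40lg (0.15 ± 0.33, 0.897) or Egr2 (0.06 ± 0.26, 0.961), which does not show that these responses were equal. Arhgef3, a guanine nucleotide exchange factor, read 98.6 and 76.4 CPM and then 141, 93 and 134 CPM without a call. In vehicle it read 36.1 and 29.6 CPM and then 344 and 303 CPM (3.30 ± 0.25), so the treatments already lay apart before stimulation. Hnrnpu, a nuclear RNA-binding protein, and Ciart, a clock repressor, had no call under Compound 10 (-0.00 ± 0.16 and -0.21 ± 0.18) and rose in vehicle (1.90 ± 0.18 and 2.00 ± 0.21). Ribosome biogenesis had 9 higher genes under Compound 10 and 22 in vehicle, with 3 differences called.

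Other genes had a higher value under Compound 10 than in vehicle. Arl5c, a small GTPase of the ARL family, went from 26.1 and 29.2 to 297, 361 and 403 CPM under Compound 10 (3.68 ± 0.27), against 0.32 ± 0.26 in vehicle (edgeR adjusted p of the difference = 0.00251); it lies at chr11:97989578-97996181. Nipal1, a magnesium transporter, went from 13.1 and 11.8 to 43.7, 64.6 and 65.7 CPM (2.22 ± 0.22 against -0.33 ± 0.23, 0.00313). Btg2 and Birc3 also had a larger change under Compound 10, with differences of 1.97 ± 0.27 and 1.94 ± 0.28; that of Btg2 was lost without unstimulated Compound 10 library 1 (edgeR adjusted p = 0.0529) and that of Birc3 without unstimulated Compound 10 library 2 (0.0508). Il16, a chemoattractant for CD4+ cells, and Spata6 had no call under Compound 10 (-0.19 ± 0.19 and 0.36 ± 0.21) and fell in vehicle (-2.79 ± 0.23 and -2.47 ± 0.26). S1pr1 and Tsc22d3 fell in both, and by less under Compound 10 (differences 2.08 ± 0.33 and 1.97 ± 0.27), but the difference for S1pr1 was lost without unstimulated Compound 10 library 1 (edgeR adjusted p = 0.0852) or stimulated vehicle library 2 (0.0578). Cxcl10 had the larger change under Compound 10, with a difference of 2.23 ± 0.45, called in 2 of the 9 fits, but its vehicle values of 88.9 and 56.3 CPM unstimulated and 173 and 257 CPM stimulated lay above those under Compound 10 in both states. In the opposite sense, Mgat1 fell under Compound 10, with no call in vehicle (-0.27 ± 0.22, edgeR adjusted p of the difference = 0.00764). Its vehicle values were 30.6 and 25 CPM unstimulated and 28 and 18 CPM stimulated, so the wider gap was in the unstimulated libraries.

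A few genes moved in opposite directions. Net1, a guanine nucleotide exchange factor, and Stim2, a calcium sensor of the endoplasmic reticulum, fell under Compound 10 (-0.61 ± 0.16 and -0.57 ± 0.16) and rose in vehicle (1.80 ± 0.18 and 1.31 ± 0.18). Tnfrsf26, a TNF receptor relative, Faf1, an adaptor of the Fas pathway, and Arl4c, a small GTPase, rose under Compound 10 (0.87 ± 0.18, 0.93 ± 0.15 and 1.28 ± 0.17) and fell in vehicle (-1.45 ± 0.19, -0.87 ± 0.16 and -0.62 ± 0.18). In unstimulated vehicle libraries Net1 read 22.8 and 22.6 CPM, Stim2 29.5 and 31.6 CPM, Tnfrsf26 80.5 and 76.8 CPM and Faf1 79.5 and 72.8 CPM. Under Compound 10 they read 129.6 and 103, 84.2 and 92.9, 27.6 and 22.8 and 35.7 and 34.8 CPM, and in these 4 genes the treatments lay further apart before stimulation than after it. Arl4c, at 63 and 81.3 CPM in vehicle and 61.6 and 66.1 CPM under Compound 10, lay further apart after stimulation. The calls under Compound 10 were lost for Net1 without unstimulated library 1 (edgeR adjusted p = 0.216) or stimulated library 3 (0.0656), for Tnfrsf26 without unstimulated library 2 (0.0764), and for Stim2 without unstimulated library 1, unstimulated library 2 or stimulated library 3 (0.0718 to 0.168). On log2(TPM + 1) without rescaling, Tnfrsf26 and Faf1 lost their calls (limma adjusted p = 0.267 and 0.226). The test of the difference kept its call in each of the 9 fits without 1 library for all 5 genes.

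**Figure D4:**
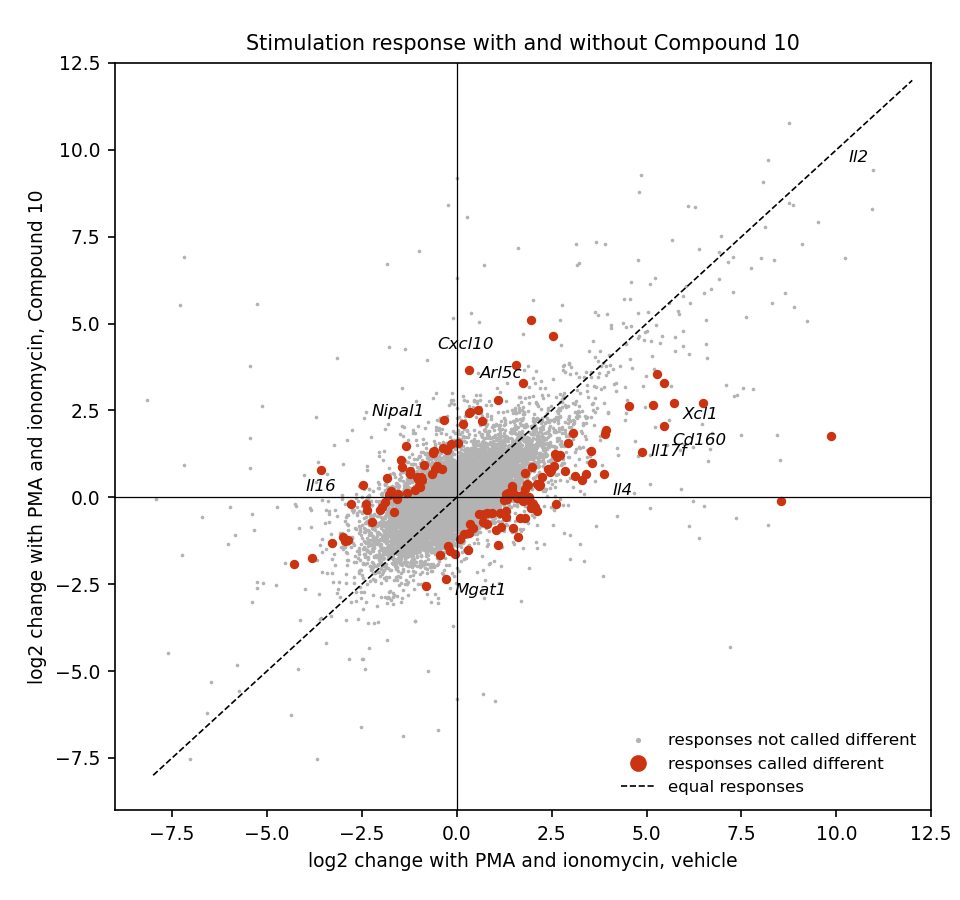
Log2 change with PMA and ionomycin in vehicle (horizontal) and under Compound 10 (vertical) for the 14011 genes tested, with the 144 genes whose responses differed in red, the others in grey and a dashed line where the responses would be equal. Il4, Il17f, Xcl1 and Cd160 lie to the right of the line and Arl5c and Nipal1 above it.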

How the data were processed

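The 9 libraries held RNA of splenic CD4+ T cells, extracted with Qiagen kits and made into libraries with Clontech SMART-seq, per the labels' protocols. The submitters' processing notes name cutadapt, a read trimmer, kallisto, a transcript quantifier, and the build mm10; their versions: not given in the sources used here. Estimated counts of transcripts were deposited as the program assigned them, without normalization between libraries, per the file headers. The TPM values stand in the same deposited tables and correct for effective length.

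Of 109617 transcripts per table, 108214 matched GENCODE M21 with the version of the identifier ignored, and unmatched ones took 0.542% to 0.829% of a library. Gene values for 45321 genes are rounded sums, so overlapping and antisense genes cannot be told apart where strand was not recorded. Genes were filtered with filterByExpr by group (minimum count 10), scaled by TMM and tested with edgeR 4.0.16 (R 4.3.3) by robust glmQLFit and 2-sided glmQLFTest, with 1 coefficient for each of the 4 groups over all 9 libraries. The vehicle libraries entered to estimate the spread and to test the difference between the responses. P-values were adjusted by Benjamini-Hochberg over 14011 genes (threshold 0.05), and the SE was taken from the log2 change and F. Between libraries the biological coefficient of variation came to 0.244, with a median SE of 0.299 for Compound 10 and 0.441 for the difference.

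The comparison, the 56 gene lists and the named genes were chosen with earlier results of these data known, and no list was tested as a set. Named genes followed a rule: the 15 furthest up and 15 furthest down with a mean of at least 16 CPM and no overlap, the 5 smallest and 3 largest p in each list, every tested cytokine, chemokine, AP-1, NFAT and NF-kB gene, the 10 clearest differences from vehicle with the 6 clearest opposite ones, and the 10 risen genes highest in stimulated TPM; predicted genes, receptor segments and pseudogenes were skipped. From this set the text describes a part, and some genes are not reported here. Cd8a, Pax5, Cr2, Ncr1, Ly6g and Il24 are given as low counts outside the rule. Alternatives changed scaling, filter, tool (DESeq2 1.42.0, limma 3.58.1 on log2(TPM + 1)), length offset, ribosomal RNA, replicate block and single libraries. Ratios of low counts carry exact 95% intervals for counting error only.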

Additional observations from a re-analysis of the deposited data

Results flagged for a closer look

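Results are given here where the response under Compound 10 differed from that in vehicle by the test of the difference itself (edgeR adjusted p under 0.05). Values are differences of log2 changes, Compound 10 minus vehicle, with their SE. The named genes below are 32 of the 144 with a called difference (1.03% of genes tested). Of these 32, 18 kept the call in every one of the 9 fits without 1 library, and 14 lost it in at least 1, with adjusted p between 0.0508 and 0.204 where lost. Compound 10 and vehicle lay further apart in mean CPM before stimulation than after it in 12 of the 32: Cxcl10, Cd6, Tnfrsf26, Traf1, Bcl3, Socs1, Arhgef3, Net1, Stim2, Faf1, Mgat1 and Ppil1.

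Among secreted factors, the difference was -3.57 ± 0.40 for Il17f, -3.20 ± 0.39 for Il4, -3.003 ± 0.41 for Xcl1, 2.60 ± 0.30 for Il16 and 2.23 ± 0.45 for Cxcl10, the last called in 2 of the 9 fits. Among receptors and surface molecules it was -3.41 ± 0.43 for Cd160, -2.51 ± 0.45 for Btla (4 of 9 fits), -2.05 ± 0.33 for Cd6 (4), -1.91 ± 0.33 for Il2ra (4), 1.78 ± 0.29 for Icam1 (5), 2.08 ± 0.33 for S1pr1 (7) and 2.32 ± 0.26 for Tnfrsf26.

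For NF-kB, cytokine feedback and growth genes the difference was 1.94 ± 0.28 for Birc3 (8 of 9 fits), 1.52 ± 0.26 for Traf1 (4), 1.91 ± 0.40 for Bcl3 (2), 1.23 ± 0.23 for Tnip1 (1), 1.54 ± 0.32 for Socs1 (1), 1.97 ± 0.27 for Btg2 (8), 1.97 ± 0.27 for Tsc22d3 and -1.35 ± 0.27 for Ccnd2 (1). Signalling and trafficking genes gave 3.35 ± 0.36 for Arl5c, 1.90 ± 0.25 for Arl4c, -2.82 ± 0.32 for Arhgef3, -2.41 ± 0.24 for Net1, -1.88 ± 0.24 for Stim2, 1.80 ± 0.23 for Faf1 and 2.55 ± 0.31 for Nipal1. The others were -2.20 ± 0.27 for Ciart, -1.91 ± 0.24 for Hnrnpu, 2.83 ± 0.33 for Spata6, -2.07 ± 0.30 for Mgat1 and -1.72 ± 0.32 for Ppil1 (2 of 9 fits).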

How the results depend on the processing

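Of 202 genes named and tested, 162 were called under Compound 10, 137 of them in every alternative, and none was called with the opposite sign. Some named genes without a call were called in at least 1 alternative. These were Il4, Ltb, Il22, Il5, Ccl5, Cd44, Lag3, Ier5, Nfatc2, Nfatc3, Bcl3, Tnip1, Tnfaip3, Arhgef3 and Cd74. The 3052 calls under Compound 10 became 3029 with median-of-ratios scaling, 3145 with DESeq2, 2686 with an effective length offset and 3062 without ribosomal RNA; without single libraries they ranged from 1506 to 3085, the rises from 760 to 1619 and the falls from 709 to 1534. On log2(TPM + 1) without rescaling, 559 rose. In vehicle, that setting gave 2430 calls against 3940, and leaving out single libraries gave 2425 to 4347, the lowest without unstimulated vehicle library 2 and 2594 without library 1. The 144 differences became 512 without the filter, 454 with DESeq2, 16 on log2(TPM + 1), 39 with rescaled TPM and 84 with the length offset, and ranged from 29 to 264 without single libraries. With 1 library in a group, its spread is assumed to equal that of the others. The cause of these shifts was not tested. The labels do not say that numbers pair libraries, and they were not taken to. Deviations of same-numbered unstimulated and stimulated libraries correlated at 0.559 and 0.424 under Compound 10, and those across treatments from -0.196 to 0.116. In vehicle the value was 0.653. With 2 libraries in each vehicle group, both pairs give the same value by construction, so it counts once. A pairing within each treatment was not settled. A replicate block over all libraries gave 2382 calls under Compound 10 and 43 differences; a replicate block within each treatment, added after seeing the data like the rescaled TPM, gave 4188 and 1162. Changes in genes with under about 10 counts in the unstimulated group are limited by depth.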
